A study of Mus with 2 samples.

Results

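Cells of the neutrophil lineage were examined in a sort for mouse hematopoietic stem cells (HSCs) by single-cell RNA-Seq. The cells were chosen by their own counts: a barcode was taken as a neutrophil-lineage cell when Elane, Mpo, S100a8 and Ngp together held at least 1% of its unique molecular identifiers (UMIs, each standing for 1 captured RNA molecule). This rule selected 65 of 958 called cells, of which 27 came from the 333 called in the Id2+/+ library and 38 from the 625 called in the Id2Δ/Δ library. The levels of those 4 genes are a description of the choice and not a finding.

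Both samples came from tibias and fibulas of Mx1-Cre mice aged 8 to 12 weeks, backcrossed to C57BL/6. One pool of 5 mice carried Mx1-Cre Id2+/+ and the other Mx1-Cre Id2Δ/Δ, a floxed Id2 allele deleted by Cre, and both were sampled after poly(I:C). The Mx1 promoter answers to interferon, so poly(I:C) induces Cre in many cell types and the Id2+/+ pool shared the Cre and the treatment. The sort took 1000 cells of either genotype, by the labels, as lineage-negative Sca-1+ c-Kit+ FLT3- CD150+ CD48- and captured on a 10x Genomics Chromium, and 1 label names Id2+/+ bones as the source of the Id2Δ/Δ sample. There was 1 library per genotype, so no comparison of genotypes had a replicate, no test was made, and every interval below is a 95% interval of counting error only.

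The neutrophil lineage is known to build its granules in order. Promyelocytes make primary (azurophil) granule proteins such as neutrophil elastase (Elane) and myeloperoxidase (Mpo), myelocytes and metamyelocytes make specific granule proteins such as lactoferrin (Ltf), and later cells make gelatinase granule proteins and receptors for leaving the marrow. The transcription factor C/EBPε (Cebpe) is needed for the specific granules, and S100a8 and S100a9, the subunits of calprotectin, accumulate as the cells mature. Id2 binds E proteins and blocks their binding to DNA.

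The libraries held 8612217 UMIs for Id2+/+ and 17140713 for Id2Δ/Δ. A barcode was called a cell from 4394 UMIs in the Id2+/+ library and 6178 in the Id2Δ/Δ library, which gave 349 and 632 barcodes, of which 16 and 7 had at least 10% mitochondrial UMIs and were left out. The labels give 383 and 686 analyzed cells. The paper found a few contaminating neutrophils and red blood cells in its single-cell data by lineage genes, and removed them before its HSC analysis. None of the barcodes left out for mitochondrial UMIs met the 1% rule. One barcode sequence was called in both libraries, and it was a neutrophil-lineage cell in the Id2Δ/Δ library alone.

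The share of neutrophil-lineage cells was 8.11% of called cells in the Id2+/+ library (exact Clopper-Pearson interval 5.41 to 11.6) and 6.08% in the Id2Δ/Δ library (4.34 to 8.25). The intervals overlapped. No cell lay near the threshold: the lowest member had 2.82% of its UMIs in the 4 genes in the Id2+/+ library and 2.44% in the Id2Δ/Δ library, while the highest called cell outside had 0.199% and 0.164%. In droplets with 1 to 100 UMIs, which hold mostly free RNA, the 4 genes made up 0.555% and 0.292% of UMIs, above the median of 0.0566% and 0.0232% in called cells outside the rule.

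**Figure D1:**
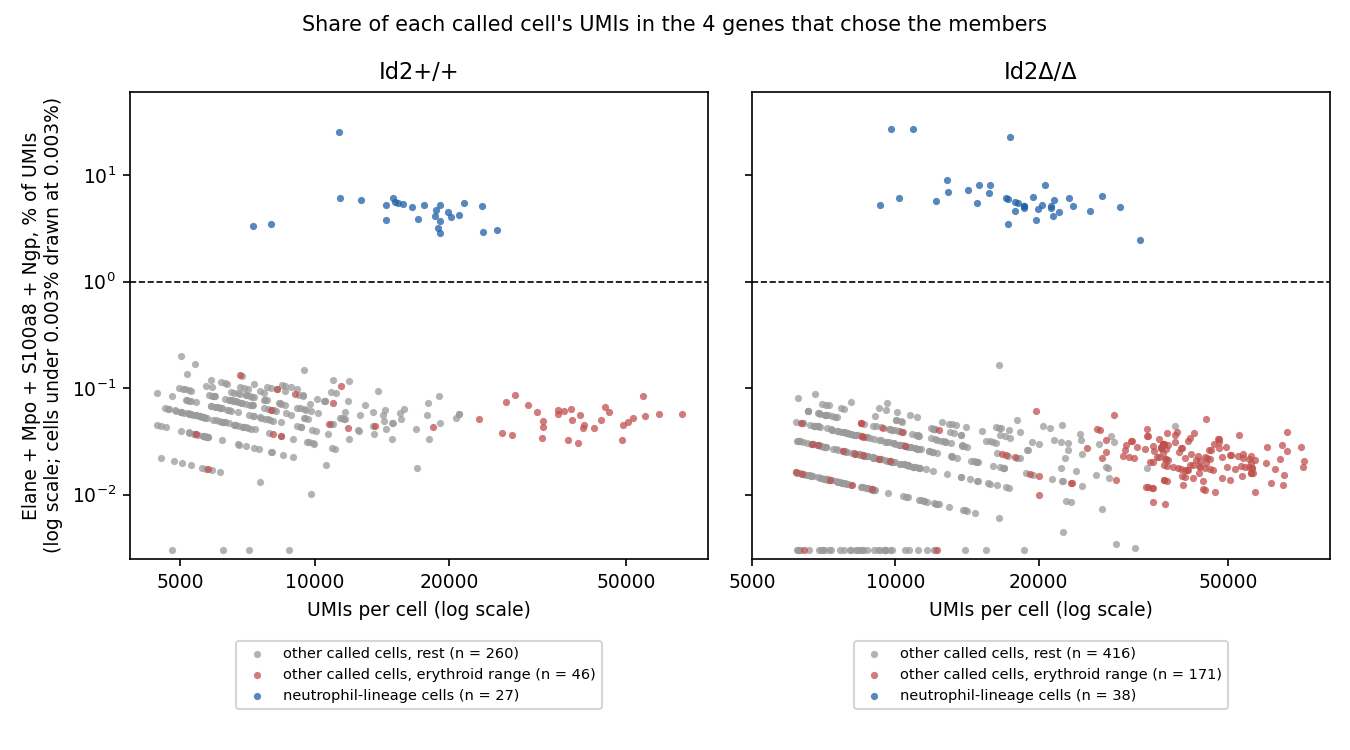
Each point is 1 called cell, by its UMIs (x, log scale) and the percent of those UMIs in Elane, Mpo, S100a8 and Ngp (y, log scale), for the Id2+/+ library (left) and the Id2Δ/Δ library (right). The dashed line is the 1% rule, and the space between 0.199% and 2.82% on the left and between 0.164% and 2.44% on the right holds no cell.

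Neutrophil-lineage cells lay between the other called cells in RNA content. Their UMIs ranged from 7262 to 25591 (median 17626) in the Id2+/+ library and from 9280 to 32734 (median 18347.5) in the Id2Δ/Δ library. The other called cells fell into an erythroid range, with haemoglobin at 5% of UMIs or more or a sum of further erythroid genes, Klf1, Car1 and Epor among them, at 0.1% or more, and the rest. The 46 and 171 cells of the erythroid range had medians of 32462 and 38730 UMIs, and the remaining 260 and 416 called cells had medians of 7081 and 9663 UMIs. The cuts that set the erythroid range apart were chosen after these data were seen.

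The neutrophil-lineage cells were then placed by granule content. For each cell the UMIs of 4 primary granule genes (Elane, Mpo, Prtn3 for proteinase 3 and Ctsg for cathepsin G) were set against those of 4 specific granule genes (Ngp for neutrophilic granule protein, Camp for cathelicidin, Ltf, and Lcn2 for lipocalin 2). A cell with under 10% of this sum in the specific granule genes was called primary-led, a cell with over 90% specific-led, and a cell between these mixed. These are ranges of a score and not cell types. All 65 cells had enough UMIs to be placed.

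Most of the cells were primary-led. The Id2+/+ library had 25 primary-led cells of 27 (92.6%, 75.7 to 99.1), 1 mixed cell and 1 specific-led cell. The Id2Δ/Δ library had 35 primary-led cells of 38 (92.1%, 78.6 to 98.3), no mixed cell and 3 specific-led cells (7.89%, 1.66 to 21.4). That last share was 15.6% with cells called from 1000 UMIs and 12.5% with the lower calling depth in both libraries, compared with 3.23% and 3.70% in the Id2+/+ library. The intervals for the specific-led share overlapped, since that of the Id2+/+ library was 3.70% (0.0937 to 19.0). In each library 1 cell lay within 0.05 of the lower cut, and none lay near the upper cut.

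The genes of the score lie in a few places of the mouse genome (RefSeq annotation, GRCm38, all protein coding). Elane (ENSMUSG00000020125) spans chr10:79886312-79888216 and Prtn3 lies beside it at chr10:79879667-79883174. Mpo spans chr11:87793784-87804412 and Ctsg chr14:56099885-56102574, on the same chromosome as Cebpe (chr14:54710363-54712174). Of the specific granule genes 3 share a chromosome, with Camp at chr9:109847377-109849456, Ngp at chr9:110419808-110423012 and Ltf at chr9:111019292-111042766, while Lcn2 is at chr2:32384637-32387739. S100a8 (chr3:90669071-90670034) and S100a9 (chr3:90692630-90695721) are neighbours. Sequences are not printed here.

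**Figure D2:**
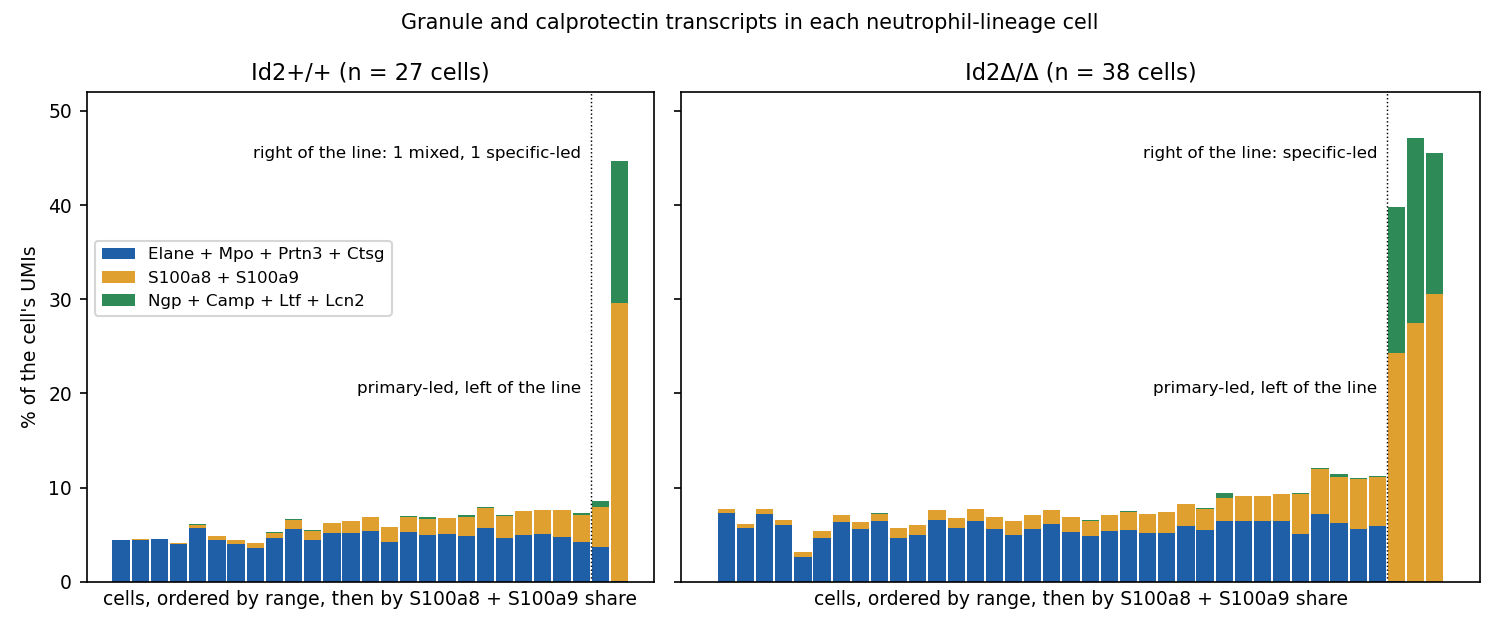
Each bar is 1 neutrophil-lineage cell, and its height is the percent of the cell's UMIs in the primary granule genes (blue), calprotectin genes (yellow) and specific granule genes (green), for 27 Id2+/+ cells (left) and 38 Id2Δ/Δ cells (right). The primary-led cells carried 3.20% to 12.04% of their UMIs in these 10 genes, while the 4 specific-led cells carried 39.8% to 47.2%.

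In primary-led cells the primary granule genes were counted in every cell. Elane ranged from 156 to 599 UMIs per cell (median 409) in the Id2+/+ library and from 264 to 802 (median 506) in the Id2Δ/Δ library. Mpo ranged from 79 to 299 (median 203) and from 91 to 396 (median 226). Prtn3 ranged from 46 to 291 (median 148) and from 104 to 273 (median 165). Ctsg, a serine protease of the same granules, ranged from 32 to 207 (median 103) and from 59 to 280 (median 145). The cells were alike in this sum, which took 3.62% to 5.73% of the UMIs of Id2+/+ cells and 2.63% to 7.37% of those of Id2Δ/Δ cells.

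Calprotectin varied far more than the granule proteases among the primary-led cells. S100a8 ranged from 3 to 480 UMIs per cell (median 229) in the Id2+/+ library and from 46 to 745 (median 227) in the Id2Δ/Δ library. S100a9 ranged from 1 to 135 (median 25) and from 0 to 346 (median 24). Together they took 0.0430% to 2.95% of UMIs in Id2+/+ cells and 0.324% to 5.28% in Id2Δ/Δ cells, and in the other called cells no more than 0.0955% and 0.0721%. Every Id2Δ/Δ primary-led cell thus lay above the highest other cell, while the 3 lowest Id2+/+ cells did not.

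Each of the 4 specific-led cells held over 100 UMIs each of Ngp, Camp and Ltf. The Id2+/+ cell had 11352 UMIs, with 2138 of S100a8, 1218 of S100a9, 757 of Ngp, 693 of Camp, 120 of Ltf and 131 of Lcn2. The Id2Δ/Δ cells had 9811, 10912 and 17461 UMIs, with 684, 981 and 1121 of Ngp, 508, 900 and 1307 of Camp, and 146, 137 and 179 of Ltf. Primary granule RNA was nearly gone in all of them. The Id2+/+ cell had 3 UMIs each of Elane, Mpo and Prtn3 and none of Ctsg, and the Id2Δ/Δ cells had 17 of Elane, 9 of Prtn3 and none of Mpo or Ctsg together.

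Calprotectin and specific granule genes held a large share of the RNA of these cells. Calprotectin held 29.6% of the UMIs of the Id2+/+ cell and 30.5%, 27.5% and 24.2% in the Id2Δ/Δ cells, in the order of depth given above. The specific granule genes held 15.0% in the Id2+/+ cell, and 15.1%, 19.6% and 15.5% in the Id2Δ/Δ cells. Ribosomal protein RNA fell to 6.79% in the Id2+/+ cell and 4.44% to 6.71% in the Id2Δ/Δ cells, below every primary-led cell of either library (20.7% to 30.7%). Mitochondrial RNA was also below every primary-led cell, at 0.705% and 0.495% to 1.42% compared with 1.70% to 3.39%.

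Over all genes, specific-led cells were compared with primary-led cells of the same library in CPM, the UMIs of a gene per 1000000 UMIs of the group, with a gene tested at 20 or more UMIs and called past 2-fold. In the Id2+/+ library 15.8% of 2884 genes were called higher and 26.5% lower, and in the Id2Δ/Δ library 9.26% of 3727 genes were called higher and 41.3% lower, against a median log2 ratio of -0.40 and -0.67. The cells of these ranges were chosen by 8 of the genes, so the values of those genes are a description. Of 12 specific granule genes in the files, 9 were tested in the Id2+/+ library and 10 in the Id2Δ/Δ library, and 9 were called higher in each, with a median log2 ratio of 8.39 and 7.35. Of 8 primary granule genes 7 and 8 were tested, and 6 and 7 were called lower. Serpinb1a, an inhibitor of these proteases, was the exception in both, at 705 CPM compared with 1140 in the Id2+/+ library and 969 compared with 1716 in the Id2Δ/Δ library.

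Genes outside the score changed with it. Chil3, a chitinase-like secreted protein, stood at 11716 CPM in the Id2+/+ specific-led cell and 91.4 in primary-led cells, and at 13121 and 122 in the Id2Δ/Δ library. Lyz2, lysozyme, stood at 22111 compared with 233 CPM and at 16054 compared with 297. Ifitm6 had 30 UMIs in the Id2+/+ specific-led cell and 1 in 25 primary-led cells, and 74 in the Id2Δ/Δ specific-led cells and 0 in 35 primary-led cells, at least 429-fold higher against a floor of 3 counts over the group. Cd177, a neutrophil surface protein, stood at 881 compared with 2.28 CPM and 707 compared with 7.53 CPM. Ltf, Ngp, Lcn2, Lgals3, Camp, Plbd1, Inhba and Chil1 made up the rest of the 10 highest ratios shared by both libraries, and Plbd1, Inhba and Chil1 rested on 1 to 11 UMIs in the specific-led cells.

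The 10 lowest ratios shared by both libraries held the 4 primary granule genes, with Ctsg at 0 UMIs in the specific-led cells, at least 24.0-fold lower in the Id2+/+ library and at least 104-fold lower in the Id2Δ/Δ library. Srgn, serglycin, the proteoglycan core on which the proteases are packed, had 1590 UMIs in primary-led and 0 in specific-led Id2+/+ cells, and 2633 and 1 in Id2Δ/Δ cells. Nkg7, a granule membrane protein best known from killer lymphocytes, had 867 and 0 UMIs, and 1629 and 4. Gstm1, Cst7 (cystatin F, an inhibitor of cysteine proteases), and the endoplasmic reticulum genes Sdf2l1 and Calr completed the set.

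Oxidase genes and factors of the lineage were compared between the same ranges. Of 6 NADPH oxidase genes, whose product makes superoxide, 4 were called higher in specific-led cells in each library. Cybb, its catalytic subunit, rose from 41.1 to 881 CPM in the Id2+/+ library (21.4-fold, 8.84 to 49.0) and from 27.1 to 759 CPM in the Id2Δ/Δ library (28.01-fold, 15.0 to 53.6). Of 12 listed factors 7 were tested in each library, with 2 called higher and 4 lower in the Id2+/+ cell and 1 and 4 in the Id2Δ/Δ cells. Over all genes between these ranges 15.8% were called higher and 26.5% lower in the Id2+/+ library, and 9.26% and 41.3% in the Id2Δ/Δ library. Cebpe was at 2.36 times the primary-led level in the Id2+/+ specific-led cell, with an interval that held 1 (0.996 to 4.78), and 2.63-fold higher in the Id2Δ/Δ cells (1.92 to 3.56). Gfi1, a repressor of the monocyte fate, had 103 UMIs in primary-led and 1 in specific-led Id2Δ/Δ cells (0.169 of the level, 0.00423 to 0.962) and 53 and 0 in Id2+/+ cells. Cebpa had 48 and 0 UMIs in Id2+/+ cells and 41 and 0 in Id2Δ/Δ cells. For these counts of 0 the floor of 3 counts in so few cells lies above the primary-led level and gives no bound.

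Several genes of late neutrophils had few or no UMIs in the specific-led cells. Mmp9, gelatinase B, and Mmp8, the neutrophil collagenase (on the specific granule list), had no UMI in the 4 specific-led cells. Retnlg had 5 UMIs in the Id2Δ/Δ specific-led cells and none in the Id2+/+ one, Cxcr2 had 2 and 1, and Ly6g had 2 and 0. Of 13 genes on the list for gelatinase granules and late cells, 4 were tested in the Id2Δ/Δ library and 3 in the Id2+/+ library. In each library 2 of those tested were called higher, and 1 was called lower in the Id2Δ/Δ library and 0 in the Id2+/+ library. Over all genes 9.26% were called higher and 41.3% lower in the Id2Δ/Δ library, and 15.8% and 26.5% in the Id2+/+ library. Lyz2, given above, was called higher in both libraries, and Itgam was in the Id2Δ/Δ library (7 compared with 14 UMIs in primary-led cells, 8.69-fold, 2.97 to 23.0). Csf3r, the G-CSF receptor, was called lower in the Id2Δ/Δ library, with 0 UMIs in specific-led and 36 in primary-led Id2Δ/Δ cells. As for Cebpa, the floor of 3 counts, 78.6 CPM in these specific-led cells, lies above the primary-led level. That 0 thus gives no bound, and a fall of Csf3r is not shown.

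**Figure D3:**
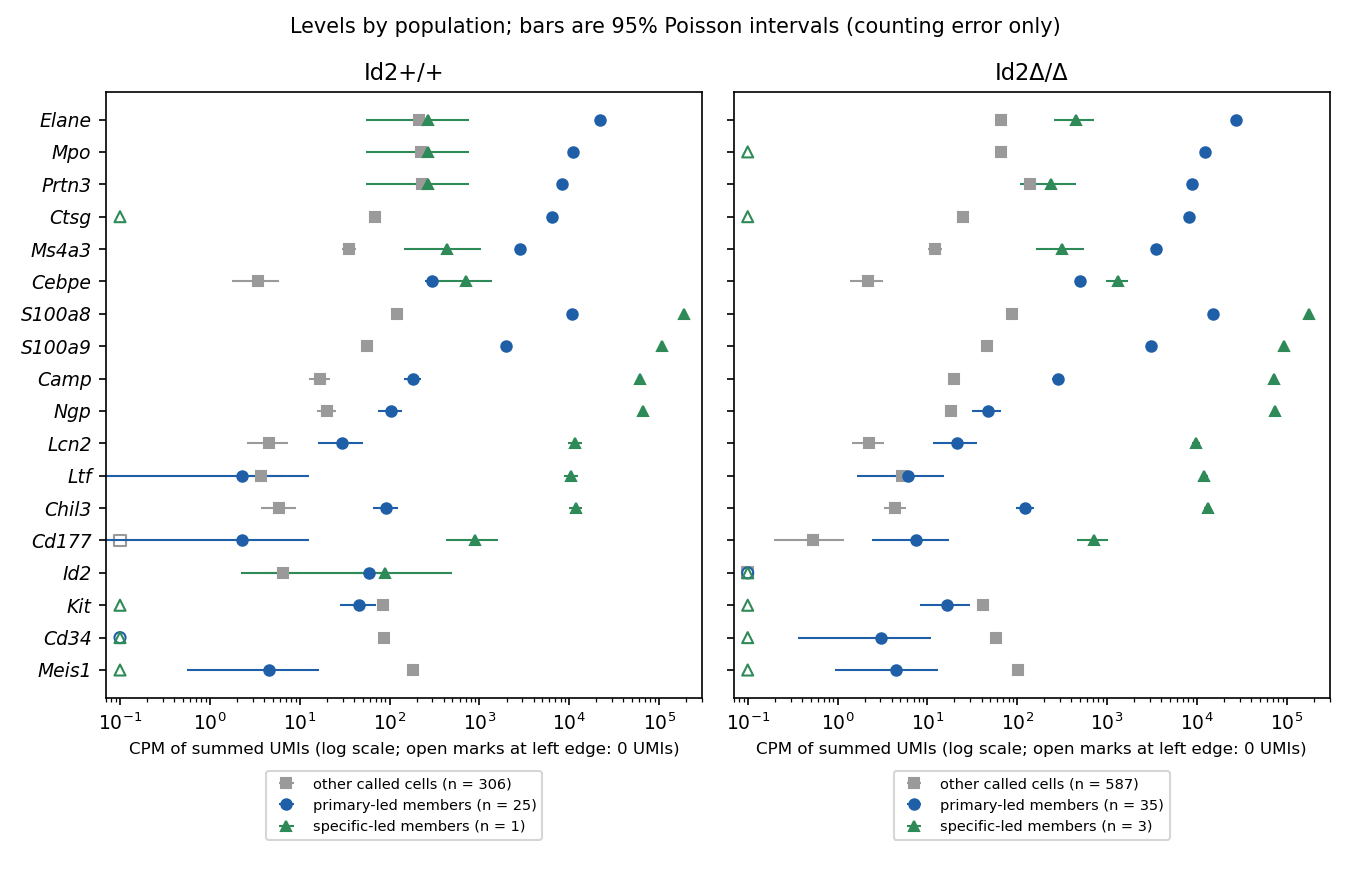
Points give the CPM of 18 genes (x, log scale) from summed UMIs in other called cells (grey squares), primary-led cells (blue circles) and specific-led cells (green triangles), with 95% Poisson intervals, for Id2+/+ (left) and Id2Δ/Δ (right). Elane stood at 22156 and 26910 CPM in primary-led cells, and Ltf at 10571 and 12099 CPM in specific-led cells compared with 2.28 and 6.03 CPM in primary-led cells.

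Cells at the edge of the primary-led range held Camp and Ngp without Ltf. The only mixed cell, from the Id2+/+ library, had 251 UMIs of Elane and 363 of S100a8 with 62 of Camp, 15 of Ngp, 2 of Lcn2 and none of Ltf. The primary-led cell nearest the cut, from the Id2Δ/Δ library, had 612 of Elane with 101 of Camp, 1 of Ngp and none of Ltf or Lcn2. Among the 26 Id2+/+ cells that were primary-led or mixed, Camp reached 5 or more UMIs in 5 cells and Ngp in 5, and among the 35 Id2Δ/Δ cells Camp did so in 5 and Ngp in 2. Ltf never exceeded 1 UMI in any of these cells, and Lcn2 never exceeded 3. Camp and Ngp were thus the 2 of these 4 genes above 3 UMIs in primary-led and mixed cells.

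To see what varied with calprotectin, the primary-led cells of each library were ordered by their share of S100a8 and S100a9, and the cells with the highest share were compared with those with the lowest (8 against 8 Id2+/+ cells and 11 against 11 Id2Δ/Δ cells). The high cells were the shallower ones, with medians of 15231 compared with 19022 UMIs in the Id2+/+ library and 15707 compared with 21230 in the Id2Δ/Δ library, and the part of depth in the differences was not tested. The order was chosen after these data were seen. Of 1885 genes tested in the Id2+/+ library 3.24% were called higher in the high cells, and of 2635 in the Id2Δ/Δ library 2.69%. Camp rose from 36.2 to 280 CPM in the Id2+/+ library (7.74-fold, 3.03 to 25.3) and from 35.8 to 855 CPM in the Id2Δ/Δ library (23.9-fold, 11.8 to 56.2). A few cells carried these values: 1 cell held 21 of the 36 Camp UMIs of the high Id2+/+ cells and 1 held 101 of the 160 of the high Id2Δ/Δ cells, and without them Camp was 3.70-fold (1.28 to 13.02) and 9.82-fold higher (4.67 to 23.8). Ngp rose 4.30-fold (1.84 to 11.7) and 6.26-fold (2.11 to 25.1), but without the high cell with the most Ngp the intervals held 1, at 2.44 (0.922 to 7.15) and 3.26 (0.939 to 14.2). Chil3 had 0 UMIs in the low cells and 27 in the high cells in the Id2+/+ library, 20 of them in 1 cell, and 3 and 72 in the Id2Δ/Δ library.

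The high cells also held more Fcnb, ficolin B, a secreted lectin, at 809 compared with 145 CPM (5.59-fold, 3.44 to 9.53, and 10.5-fold without the low cell that had 11 of the 20 UMIs) and 1159 compared with 372 CPM (3.12-fold, 2.41 to 4.07). Pglyrp1, a peptidoglycan-binding granule protein, was 2.30-fold (1.66 to 3.22) and 1.45-fold higher (1.20 to 1.77). Cebpe was 1.81-fold (1.15 to 2.90) and 1.41-fold higher (1.05 to 1.89), but without the high cell with the most Cebpe the intervals held 1, at 1.55 (0.954 to 2.53) and 1.32 (0.969 to 1.79). The proteases moved little: Elane was 1.24-fold (1.18 to 1.31) and 1.27-fold higher (1.22 to 1.32), while Ctsg was at 0.833 (0.754 to 0.919) and 0.834 (0.778 to 0.893) of the level in the low cells. Without the low Id2+/+ cell with the most Ctsg that ratio was 0.910 and its interval held 1 (0.819 to 1.01). Srgn, Nkg7 and Ms4a3, a gene of granulocyte progenitors, had intervals that held 1 in both libraries. The sum of the 4 specific granule genes was low in every one of these cells, at most 0.197% of UMIs in Id2+/+ and 0.524% in Id2Δ/Δ primary-led cells.

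Across single primary-led cells, the share of calprotectin had a Spearman correlation with Camp of 0.32 in 25 Id2+/+ cells and 0.51 in 35 Id2Δ/Δ cells, and with Wfdc21 of 0.70 and 0.51. With Ctsg it was -0.22 and -0.43. The cells of a library share its depth and its free RNA, so these values are a description. Myb, a progenitor factor, was at 0.395 of the level of the low cells in the Id2+/+ library (0.217 to 0.690) and at 1.69 in the Id2Δ/Δ library (1.05 to 2.77), where the interval held 1 without 1 high cell (1.63, 0.981 to 2.71).

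**Figure D4:**
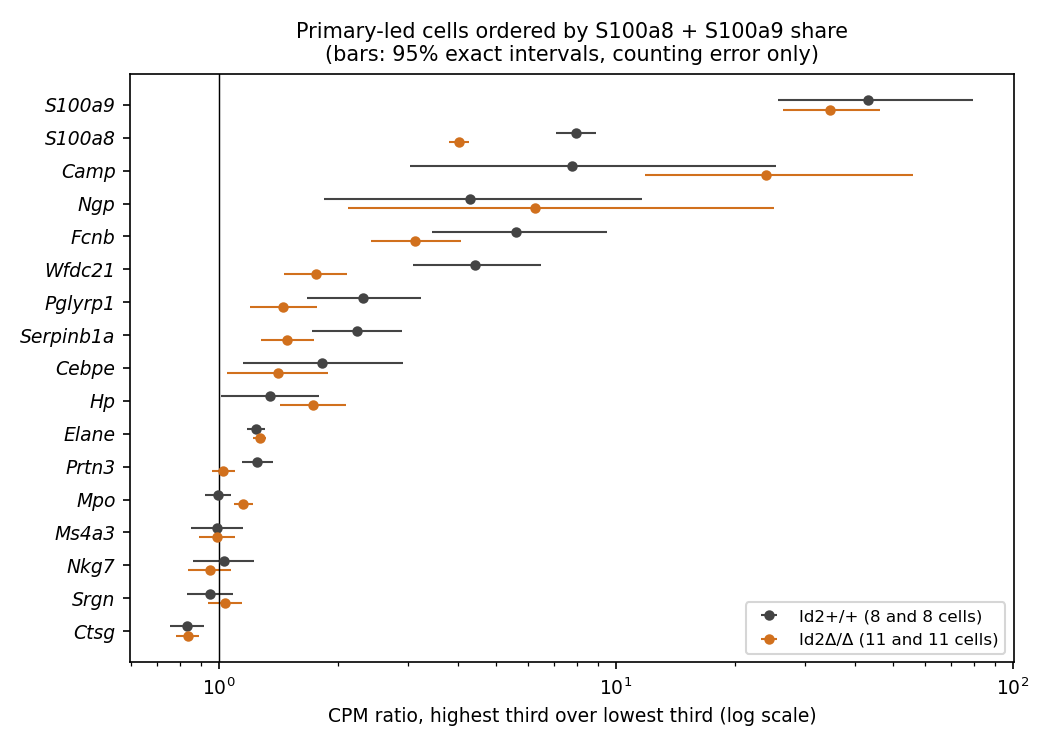
Points give the ratio of CPM in the primary-led cells with the most S100a8 and S100a9 over those with the least (8 against 8 Id2+/+ and 11 against 11 Id2Δ/Δ cells, x, log scale) for 17 genes, with exact 95% intervals of counting error, in Id2+/+ (black) and Id2Δ/Δ cells (orange). Camp, Ngp and Fcnb lie above 1 in both libraries, Camp and Ngp largely through single cells, Ctsg lies below 1 at 0.833 and 0.834 (the former 0.910 without 1 low cell), and S100a8 and S100a9 head the plot because they set the order.

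All neutrophil-lineage cells were then compared with the other called cells of the same library. In the Id2+/+ library 6.49% of 9467 genes tested were called higher and 26.6% lower, and in the Id2Δ/Δ library 8.2% of 10641 were called higher and 29.7% lower, with median log2 ratios of -0.40 and -0.44. Since 4 genes chose the cells, genes that travel with them had to be higher, and the counts describe the cells. Of 8 primary granule genes tested 7 were called higher in each library. Ctsc, cathepsin C, which activates the proteases, was the exception at 23.8 compared with 32.3 CPM and 29.9 compared with 28.1 CPM. All 9 and 10 specific granule genes tested and all 6 NADPH oxidase genes were called higher in each library.

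The factors of granulocyte fate stood out. Cebpe was counted in every neutrophil-lineage cell, at 1 to 12 UMIs in primary-led Id2+/+ cells and 2 to 17 in primary-led Id2Δ/Δ cells, with 327 CPM in Id2+/+ members compared with 3.40 in other called cells (96.3-fold, 53.5 to 190.5) and 541.3 compared with 2.16 CPM in the Id2Δ/Δ library (251-fold, 166 to 397). Gfi1 was 24.7-fold (14.3 to 44.5) and 55.0-fold higher (36.3 to 85.5). Cebpa, which starts granulocyte commitment, was 41.7-fold (20.2 to 96.4) and 27.1-fold higher (15.99 to 46.9). Of 12 listed factors 10 and 11 were tested, 6 were called higher in each library, and 2 and 3 lower. Over all genes 6.49% and 8.2% were called higher and 26.6% and 29.7% lower. Gata2, a stem cell and mast cell factor, was among the lowest, with 6 UMIs in 27 Id2+/+ cells and 1 in 38 Id2Δ/Δ cells.

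Among the 20 highest ratios, ranked after these data were seen, were Trem3, an activating receptor, at 474 CPM in Id2+/+ members and 3.40 in other cells, and at 600 and 1.71 in the Id2Δ/Δ library. Wfdc21, a small secreted protein of the whey acidic family, stood at 968 and 6.79 CPM and at 1340 and 4.13 CPM. Ms4a3 stood at 2735 and 35.4 CPM and at 3352 and 12.1 CPM. Mgl2, Clec12a and Clec4a2, all C-type lectins, and Fcgr3, an Fc receptor, were in the same set. In the other called cells Elane was counted in 81.0% (76.2 to 85.3) and 61.0% (56.9 to 65.0) of cells, with a median of 2 and 1 UMIs and a highest count of 20 and 17. Its level there, 212 and 66.7 CPM, was below that of droplets with 1 to 100 UMIs, 1791 and 906 CPM. The ratio of Mpo to Elane UMIs was 1.05 (0.949 to 1.16) and 0.999 (0.901 to 1.11) in those cells, compared with 0.4998 (0.483 to 0.517) and 0.459 (0.447 to 0.472) in members and 1.57 (1.53 to 1.62) and 0.841 (0.801 to 0.884) in droplets with 1 to 100 UMIs.

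Most genes of stem and progenitor cells were low. Of 8 progenitor genes 5 were called lower in the Id2+/+ library and 6 in the Id2Δ/Δ library, and 1 was called higher in each, Myb, 2.08-fold (1.68 to 2.57) and 2.17-fold (1.76 to 2.64). Over all genes in this comparison with other called cells 26.6% and 29.7% were called lower and 6.49% and 8.2% higher. Primary-led cells against called cells outside the erythroid range had none of the 8 called higher and 6 lower in each library, with Myb at 1.58 (1.26 to 1.97) and 1.49 (1.21 to 1.83). There 29% and 32% of all genes were called lower and 5.52% and 5.55% higher. In members against all other called cells, 7 of 8 tested HSC genes were called lower in the Id2+/+ library, and 8 of 9 were in the Id2Δ/Δ library. Meis1, a stem cell homeobox factor, had 2 UMIs in 27 Id2+/+ members and 3 in 38 Id2Δ/Δ members, compared with 181 and 101 CPM in other called cells. Cd34 had 0 and 2 UMIs, at least 13.4-fold lower in the Id2+/+ library. Hlf, another stem cell factor, had 2 and 4 UMIs. The whole HSC list of 9 genes summed to 0.0078% of member UMIs in the Id2+/+ library and 0.00399% in the Id2Δ/Δ library, compared with 0.0872% and 0.0664% in the called cells outside the erythroid range.

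RNA for the surface proteins of the sort was read next. Of the 3 antigens selected for, all were called lower in primary-led cells than in called cells outside the erythroid range in each library, where 29% and 32% of 8735 and 9905 genes tested were called lower and 5.52% and 5.55% higher. Kit, the receptor for stem cell factor, was selected for, and its RNA was counted in 12 of 27 Id2+/+ members (43.3 CPM) and 10 of 38 Id2Δ/Δ members (15.7 CPM), compared with 122 and 79.3 CPM in called cells outside the erythroid range. Slamf1, which encodes CD150, had 3 UMIs in the Id2+/+ members and 0 in the 38 Id2Δ/Δ members, where 3 counts of 38 cells set an upper limit of 7.89% for the share of cells with a UMI. Ly6a, which encodes Sca-1, was counted in 14 of 27 and 8 of 38 members. Cd48, selected against, was counted in 18 of 27 members (73.6 CPM, 51.0 to 103) and in 26 of 38 (81.2 CPM, 61.5 to 105), 9.29-fold (5.47 to 15.9) and 7.73-fold (5.53 to 10.7) above the other called cells. Of 8 antigens selected against, 3 and 4 had enough UMIs in primary-led cells and called cells outside the erythroid range together to be tested. Cd48 was called higher in both libraries and Itgam in the Id2Δ/Δ library, while Flt3 and Ptprc were called lower in both, Ptprc at 0.479 (0.241 to 0.868) and 0.461 (0.269 to 0.742). Ptprc encodes every form of CD45, and of these the paper's lineage antibodies name B220 alone. Gene counts do not tell the forms apart, so the Ptprc values do not read what the gate left out.

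At equal depth the intervals of the antigens selected for overlapped in the Id2+/+ library. With every cell thinned to 4300 UMIs, Ly6a was counted in 22.2% of Id2+/+ members (8.62 to 42.3) and 30% of called cells outside the erythroid range (24.5 to 35.97), Slamf1 in 7.41% (0.910 to 24.3) and 10.8% (7.28 to 15.2), and Kit in 18.5% (6.3 to 38.1) and 37.7% (31.8 to 43.9). In the Id2Δ/Δ library Kit was in 5.26% (0.644 to 17.7) and 28.6% (24.3 to 33.2), with no overlap. There Ly6a and Slamf1 were in 0 of 38 members, compared with 25% (20.9 to 29.5) and 12.5% (9.48 to 16.1). Free RNA, estimated from haemoglobin, made up 9.85% of member UMIs in the Id2+/+ library and 3.95% in the Id2Δ/Δ library. Its part in these shares was not tested. Cd48 was counted in 22.2% of Id2+/+ members (8.62 to 42.3) and 3.08% of called cells outside the erythroid range (1.34 to 5.97), and in 26.3% (13.4 to 43.1) and 6.25% (4.12 to 9.02) in the Id2Δ/Δ library. Flt3, selected against, had 0 UMIs in all members of both libraries. Itgam, which encodes the lineage antigen CD11b, was counted in 5 of 25 primary-led Id2+/+ cells and 10 of 35 primary-led Id2Δ/Δ cells, and Ly6g in 1 and 0. These are RNA counts, and the proteins seen by the gate were not measured here.

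Markers of other cell types were checked as whole lists. The 7 monocyte and dendritic genes summed to 39.0 CPM in Id2+/+ members and 41.3 in Id2Δ/Δ members, compared with 7.64 and 11.4 CPM in other called cells. In the primary-led cells F13a1 stood at 36.5 and 39.2 CPM, while among all members Csf1r, Ccr2, Irf8 and Ly86 had 0 or 1 UMI in each library and Siglech and Klf4 had 0. The 3 eosinophil genes had 0 and 3 UMIs, all of Prg3. Of 4 basophil and mast genes Mcpt8 stood at 23.8 and 34.2 CPM, Cpa3 and Prss34 had 0 UMIs, and Ms4a2 had 0 and 1. The sum of these 4 genes was 2.48-fold (1.13 to 5.00) and 13.2-fold (7.45 to 23.2) above the other called cells. The B cell list summed to 56.3 and 41.3 CPM, compared with 54.9 and 22.0 CPM in other called cells, with Cd79a at 0 UMIs. Of 4 T and NK genes Cd3d, Cd3e and Gzma had 0 UMIs and Nkg7 made up the whole sum of 1897 and 2326 CPM.

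Haemoglobin stayed between 0.0161% and 0.141% of UMIs in every member, below 1% in each. The 6 megakaryocyte genes summed to 60.6 and 390.3 CPM, compared with 842 and 902 CPM in other called cells. One Id2Δ/Δ member, the deepest at 32734 UMIs and the lowest in the 4 rule genes, held 216 UMIs of the platelet gene Pf4 with 10 of Gp1bb and 4 of Gp9, where no other Id2Δ/Δ member had more than 2 of Pf4. Whether that barcode holds more than 1 cell was not tested, and no doublet caller was run.

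Dividing cells and metabolism were read from lists. S phase genes took 0.467% and 0.454% of UMIs in primary-led cells, compared with 0.316% and 0.386% in called cells outside the erythroid range and 0.637% and 0.690% in erythroid-range cells. G2/M genes took 0.469% and 0.583%, compared with 0.334% and 0.424% and with 1.01% and 1.22%. Against all other called cells 16 and 23 of 51 G2/M genes were called lower and none higher, where 26.6% and 29.7% of all genes were called lower, with Mki67, a proliferation marker, at 0.409 (0.250 to 0.634) and 0.278 (0.193 to 0.388) of the other cells' level. Against the called cells outside the erythroid range, primary-led cells had 5 of 45 G2/M genes higher and 4 lower in the Id2+/+ library and 6 of 50 higher and 9 lower in the Id2Δ/Δ library. Over all genes in the same comparison 5.52% and 5.55% were called higher and 29% and 32% lower. In the specific-led cells the G2/M list took 0.423% in the Id2+/+ cell and 0.285%, 1.43% and 1.54% in the Id2Δ/Δ cells, and the last 2 lay above every primary-led cell. Ube2c, a mitotic ubiquitin carrier, had 6 and 25 UMIs in those cells. Against primary-led cells, 14 of 30 G2/M genes tested were called higher and none lower in the Id2Δ/Δ specific-led cells, while 23 of 37 S phase genes were called lower and 5 higher. The Id2+/+ cell did not share the S phase pattern, with 7 of 29 called higher and 1 lower. In the single Id2+/+ specific-led cell 3 of 22 G2/M genes were called higher and 8 lower, where 15.8% and 26.5% of all genes were. In the Id2Δ/Δ comparison 9.26% of all genes were called higher and 41.3% lower.

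Of 22 tested HIF and glycolysis genes, 9 and 8 were called higher in members than in other called cells and 4 and 2 lower. Over all genes 6.49% and 8.2% were called higher and 26.6% and 29.7% lower. Primary-led cells against called cells outside the erythroid range had 5 of 21 higher and 4 lower in the Id2+/+ library and 5 of 22 higher and 3 lower in the Id2Δ/Δ library. There 5.52% and 5.55% of all genes were called higher and 29% and 32% lower. The fold values that follow are for members against all other called cells unless stated. Hk3, a hexokinase of granulocytes, stood at 227 compared with 7.08 CPM in the Id2+/+ library (32.1-fold, 20.6 to 51.9) and 195 compared with 3.05 CPM in the Id2Δ/Δ library (63.9-fold, 43.6 to 96.0). Eno1 was 4.60-fold (4.11 to 5.14) and 4.22-fold higher (3.87 to 4.58), Pgam1 4.50-fold (3.86 to 5.24) and 6.39-fold higher (5.71 to 7.15), and Pkm 3.01-fold (2.71 to 3.33) and 3.93-fold higher (3.63 to 4.26). Against called cells outside the erythroid range Pkm was under 2-fold in primary-led cells, at 1.89 (1.70 to 2.10) and 1.76 (1.62 to 1.90). Interferon genes went the other way in members against other called cells, with 14 and 12 of 18 tested genes called lower and none higher. Over all genes 26.6% and 29.7% were called lower there. The interferon list took 0.0496% and 0.0459% of member UMIs, compared with 0.103% and 0.102% in called cells outside the erythroid range.

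Id2 was counted in neutrophil-lineage cells of the Id2+/+ library. It had 5 UMIs in the highest cell, was found in 15 of 27 cells (55.6%, 35.3 to 74.5) and summed to 29 UMIs, or 62.8 CPM (42.1 to 90.2). In the called cells outside the erythroid range it had 22 UMIs, or 10.4 CPM (6.52 to 15.7), and members were 6.04-fold higher (3.35 to 11.03), and in droplets with 1 to 100 UMIs it stood at 8.28 CPM. At 4300 UMIs per cell it was counted in 29.6% (13.7 to 50.2) of members and 5.00% (2.69 to 8.40) of the called cells outside the erythroid range. It was at 0 in all 38 Id2Δ/Δ members, at least 14.7-fold lower against a floor of 3 counts over the group, and 3 counts of 38 cells leave an upper limit of 7.89% for the share with a UMI. In the other called cells Id2 had 23 UMIs in the Id2+/+ library and 0 in the Id2Δ/Δ library, at least 24.2-fold lower, and over all barcodes it had 99 and 4. The loxP sites, by the study's methods, flank the start of the gene, which deletion removes. A 3′ tag reads the end of the transcript, outside the deleted part, so these counts run the way the labels say without reading the deleted part itself. Among the partners of Id2, Tcf3, Tcf4 and Tcf12 were each lower in primary-led cells than in other called cells, with Tcf3 at 57.1 and 43.7 CPM compared with 143 and 172 CPM. Id1 was at 9.14 and 16.6 CPM in primary-led cells and Id3 at 0.

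Id2Δ/Δ and Id2+/+ primary-led cells were compared last, to see whether the granule program differed with genotype. Across 4914 genes tested 1.97% were called higher and 4.33% lower in Id2Δ/Δ, with 97 and 213 genes. The balance turned with free RNA subtracted, when 251 were higher and 191 lower. None of the 8 primary granule genes tested was called in either direction, and of 7 specific granule genes tested 1 was called lower. That gene was Ngp, at 46.7 compared with 103 CPM (0.454, 0.278 to 0.734), and without the Id2+/+ cell that held 14 of its 45 UMIs it was no longer past 2-fold, at 0.636 (0.374 to 1.08). Without the Id2Δ/Δ cell with the most Ngp the ratio was 0.300 (0.168 to 0.519). Camp was at 283 compared with 180.5 CPM (1.57, 1.20 to 2.07). The direction for Camp rested on 1 cell, the Id2Δ/Δ cell nearest the cut, which held 101 of 188 UMIs, and without it Camp was at 135.0 CPM (0.748, 0.545 to 1.03). Without the Id2+/+ cell with the most Camp the ratio was 2.47 (1.79 to 3.47). The sum of Elane, Mpo, Prtn3 and Ctsg was 1.17-fold higher in Id2Δ/Δ primary-led cells (1.16 to 1.20) and that of S100a8 and S100a9 was 1.43-fold higher (1.38 to 1.48). Per cell the groups overlapped over most of their range, as given above for each gene.

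Elane was 1.21-fold (1.18 to 1.25) and Ctsg 1.29-fold higher (1.23 to 1.35) in Id2Δ/Δ cells. Cebpe was 1.66-fold higher (1.35 to 2.05), with 497 compared with 299 CPM, Serpinb1a 1.51-fold higher (1.35 to 1.68) and Pglyrp1 1.44-fold higher (1.26 to 1.65). Cebpa was 0.563 of the Id2+/+ level (0.362 to 0.873) and Kit 0.363 (0.157 to 0.794), on 11 and 20 UMIs. In the other called cells Elane was at 0.315 of the Id2+/+ level (0.284 to 0.349) and S100a8 at 0.729 (0.649 to 0.819). With 1 library each, genotype and library cannot be told apart.

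The 5 lowest ratios were Id2, Hist1h2ap, Ptgfrn, Fos and Grip2. Fos, an immediate early factor, stood at 68.5 CPM in Id2+/+ and 13.6 in Id2Δ/Δ primary-led cells (0.198, 0.0826 to 0.427), and in the other called cells at 134 and 16.9 CPM (0.126, 0.106 to 0.149). Hist1h2ap, a histone H2A gene, was at 0.183 (0.106 to 0.304) and in the other called cells at 0.360 (0.330 to 0.393). Ptgfrn was at 0.180 (0.0597 to 0.457) and 0.184 (0.145 to 0.232), and Grip2 at 0.226 (0.107 to 0.446) and 0.280 (0.232 to 0.337). All 5 were thus lower in the other called cells of the Id2Δ/Δ library too. The same held for the glycolysis gene Gapdh, at 0.524 (0.460 to 0.597) in primary-led cells and 0.639 (0.611 to 0.668) in other called cells, and for Pgk1, at 0.388 (0.260 to 0.574) and 0.393 (0.339 to 0.455). Of 17 HIF and glycolysis genes tested in primary-led cells 2 were called lower and none higher, with a median log2 ratio of -0.14. Over all genes in that comparison 4.33% were called lower and 1.97% higher. Reads of Gapdh and of Hist1h2ap can be shared with near-identical copies, so their counts are uncertain.

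The 5 highest ratios were Pf4, Trmt10c, Ppp1r35, Cenpa and Sap30. Pf4 was 10.6-fold higher (6.27 to 19.1), but 90% of its 240 UMIs came from the 1 cell described above, and without the deepest cell of each library it was at 1.04 (0.526 to 2.14). Trmt10c, which makes up part of mitochondrial RNase P, was 3.08-fold higher (1.48 to 7.19) on 42 and 9 UMIs and at 1.002 (0.848 to 1.19) in other called cells. Ppp1r35, a centrosomal protein, was 2.71-fold higher (1.60 to 4.82) and at 1.09 (0.941 to 1.26) in other called cells. Cenpa, the centromeric histone, was 2.45-fold higher (1.60 to 3.86) and 1.48-fold higher (1.38 to 1.60) in other called cells. Sap30, of a histone deacetylase complex, was 2.43-fold higher (1.30 to 4.90). Of 33 G2/M genes tested 5 were called higher in Id2Δ/Δ primary-led cells and none lower, with a median log2 ratio of 0.25. Over all 4914 genes tested there 1.97% were called higher and 4.33% lower. In the other called cells none of 51 G2/M genes was called, with a median of 0.55. Over all 11092 genes tested in those cells 0.604% were called higher and 8.81% lower, with a median of -0.14.

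**Figure D5:**
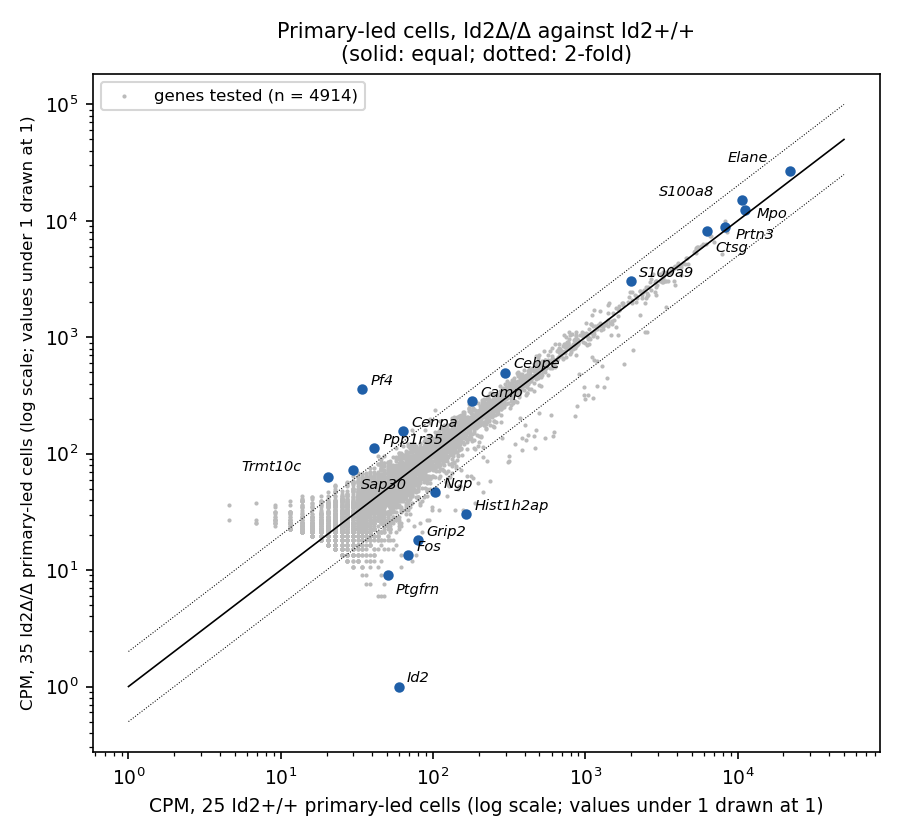
Each point is a gene tested (n = 4914), by its CPM in 25 Id2+/+ (x) and 35 Id2Δ/Δ primary-led cells (y), on log scales with the solid line at equal levels and the dotted lines at 2-fold. The 4 primary granule genes lie near the solid line, Ngp lies just below the lower dotted line, Pf4 lies above the upper dotted line, and Id2, at 0 in Id2Δ/Δ and drawn at 1 CPM, lies below the lower one.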

How the data were processed

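Single-cell RNA-Seq of sorted HSCs was measured in 2 mouse samples, 1 per genotype, grouped by the genotype label. The deposited matrices hold raw counts of UMIs for 27998 genes in 737280 barcodes per library, which the authors made with Cell Ranger 2.2.0 on mm10 per the submitters' processing notes. Where rows share a symbol, the one listed earliest stands for it.

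Cells were barcodes with at least 10% of the 99th percentile of UMIs among the 1000 deepest barcodes, with mitochondrial symbols under 10%. UMIs were summed per library and range and divided by their total (CPM). Ratios carry the exact conditional interval, levels the Poisson interval and shares the Clopper-Pearson interval, with 3 counts as the limit for a count of 0 (scipy 1.17.1, numpy 2.4.6 in Python 3.11.15), all for counting error only. The members and gene lists were chosen with earlier results of these data known. Named genes were those of the lists, the 10 highest and lowest specific-led over primary-led ratios past 2-fold in both libraries and the 5 highest and lowest genotype ratios, at 50 CPM or more and in 25% of cells or more. Mitochondrial, ribosomal, haemoglobin, sex-linked and pseudogene symbols were left out of rankings, and genes of other rankings were chosen after their values were seen. The ratios and intervals were tested on simulated data. Gene spans came from RefSeq by symbol (22856 of 27998 matched). Of 257 listed genes 256 were in the files. Cells thinned to 4300 UMIs were drawn once. Alternatives are given in the closing section. Some listed marker genes are not reported here.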

Additional observations from a re-analysis of the deposited data

Results flagged for a closer look

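Barcodes below the depth at which cells were called also held neutrophil RNA. Between 500 UMIs and that depth, 6 of 189 barcodes in the Id2+/+ library (3.17%, 1.17 to 6.78) and 10 of 506 in the Id2Δ/Δ library (1.98%, 0.952 to 3.60) had 5% or more of their UMIs in Elane, Mpo, S100a8 and Ngp. They enter no comparison above.

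In the Id2Δ/Δ library 5 of the 10 were specific-led, at 549, 3214, 4250, 4398 and 5254 UMIs. The deepest of them had 226 UMIs of Ngp, 134 of Ltf and 1226 of S100a8 with 40 of Retnlg, 19 of Mmp8 and 12 of Mmp9, late genes that were at or near 0 in the called cells. A further 3 had 1040, 1142 and 1146 UMIs, of which 261, 184 and 144 were S100a8, with 0 to 2 UMIs in the 4 primary and in the 4 specific granule genes. Those had 19, 40 and 3 UMIs of Retnlg and 1, 2 and 1 of Cxcr2, the receptor by which neutrophils leave the marrow. In the Id2+/+ library 5 of the 6 had under 10% of their granule sum in specific granule genes. The other one, at 763 UMIs, had 5 UMIs in the 8 granule genes, under the 10 needed to be placed, with 43 of S100a8, 3 of Retnlg and 2 of Cxcr2. In each library 2 had over 10% mitochondrial UMIs.

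The genotype ratio of 2 gene sums went one way in primary-led cells and the other way in the other called cells. Elane, Mpo, Prtn3 and Ctsg summed to 1.17-fold higher in Id2Δ/Δ primary-led cells and to 0.405 of the Id2+/+ level in other called cells, and S100a8 and S100a9 to 1.43-fold higher and to 0.763. In droplets with 1 to 100 UMIs the first sum stood at 6093 CPM in the Id2+/+ library and 2356 in the Id2Δ/Δ library, and the second at 1098 and 1521, and the part of free RNA in the other called cells was not tested. The difference was not tested, since each genotype had 1 library.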

How the results depend on the processing

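Across 17 results and 16 alternative settings, 89 of 102 values stayed within the counting interval of the reported value (for numbers of genes, within 1.5 times), 13 moved and none reversed. This leaves aside the single genes below and the balance of genes called higher and lower between genotypes, which turned with free RNA subtracted. No paired analysis was possible because the design holds a single sample of either genotype. With cells called from 1000 UMIs the primary-led share of Id2Δ/Δ members was 77.8%. With cuts at 0.2 and 0.8 the summed specific granule list was 5.93 (log2) higher in specific-led Id2+/+ cells. As a mean over cells the Id2Δ/Δ over Id2+/+ ratio of S100a8 and S100a9 was 1.61 in members and 1.49 in primary-led cells, and that of Elane, Mpo, Prtn3 and Ctsg was 1.20 in primary-led cells. Without the deepest member of each library the latter was 1.17 in members and 1.20 in primary-led cells. Without the barcode called in both libraries, S100a8 and S100a9 stood at 1.59 in members. The number of genes called between genotypes in primary-led cells depended on the setting: 251 were higher and 191 lower with free RNA subtracted (its share estimated from haemoglobin as 9.85% and 3.95% of member UMIs), 737 were higher and 2148 lower with no minimum of UMIs per gene, and 12 and 73 with a minimum of 50. Among single genes, the Camp ratio between genotypes in primary-led cells reversed, to 0.748, without the Id2Δ/Δ cell with the most Camp. The single-cell omissions and the settings with no minimum or a minimum of 50, without the shared barcode, with the lower calling depth in both libraries, without the erythroid range and with cells ordered by calprotectin were chosen after seeing the data. No member had 1% haemoglobin, so leaving out such members changed no value.

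With 1 library per genotype, 5 pooled mice without a mark of the animal and 4 specific-led cells, spread between animals was not measured. Genes with a few UMIs in the specific-led cells were not measurable at this depth, and an RNA at 0 is not shown to be absent. The depth rule leaves out small neutrophils.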
